A study of Mus musculus with 6 samples.

Results

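The 10 genes described here act in carrying cholesterol and other lipids out of cells, in the remodelling or uptake of lipoproteins, or in the control of these steps. The family comprises the apolipoprotein genes Apoe, Apoc1, Apoc2 and Apoc4, the nuclear receptor gene Nr1h3 and the efflux transporter genes Abca1 and Abcg1. It also holds the lipase gene Lpl, the phospholipid transfer protein gene Pltp and the ubiquitin ligase gene Mylip. These are 10 of the 36870 gene symbols in the deposited table. The family was chosen because Apoc2 stood among the largest increases after Tet1/Tet2 siRNA treatment, so the difference between the groups was used to pick it, and the values of the 10 genes are given as a description with standard errors (SE) and without p-values. RNA-seq was performed on mouse BMMSCs (bone marrow mesenchymal stem cells, grown as the adherent cells of flushed bone marrow) of the C57BL/6 strain, with 3 control libraries and 3 libraries in which Tet1 and Tet2 had been knocked down together by siRNA. Tet1 and Tet2 are enzymes that oxidise methylated cytosine in DNA and so promote demethylation, and the study asked what their depletion changes in these cells. The labels and the siRNA methods describe the control as a non-targeting siRNA, whereas the RNA-sequencing methods call it vehicle, and the labels give passage p2 where the methods give passage one. The labels do not say whether the 3 libraries of a group came from separate cultures or animals, so the p-values below measure the spread between these samples, which may be technical.

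Nuclear receptors of the LXR family, LXR alpha (encoded by Nr1h3) and LXR beta (encoded by Nr1h2), are activated by oxysterols and bind DNA together with a retinoid X receptor (RXR). In macrophages, which take up cholesterol with the cells and lipoproteins they engulf, LXR switches on transporters that hand cholesterol to apolipoprotein acceptors, the acceptor apolipoprotein E itself, and enzymes that remodel lipoproteins. The genes Apoe, Apoc1, Apoc4 and Apoc2 lie side by side, and their joint expression in macrophages is a textbook example of LXR control through shared distal enhancers.

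Values are RPKM, the read number of a gene divided by its length and by the size of the library, so that levels can be compared between genes per unit of length, and a difference is the mean log2(RPKM + 1) of the siRNA libraries minus that of the control libraries, a scale that shrinks the change of weakly expressed genes. The summed RPKM of the 6 libraries lay between 393567 and 440433. Their depth, estimated from the steps of low values, lay between 32400000 and 38700000 reads, although only 55.6% to 60.1% of those values fell within 0.1 of a whole read, against 20% by chance at a depth fixed beforehand. Tet2 was listed at 2.57, 4.08 and 3.71 RPKM in the controls and at 0.358, 0.238 and 0.202 RPKM in the siRNA libraries, and Tet1 stood at or below 0.098 RPKM in every library. Of the 13266 genes tested across the table, 14.7% were higher and 29.8% lower at an adjusted p under 0.05. These shares are the background for every count of genes that rose or fell below. By the study's thresholds for altered genes (unadjusted p under 0.05 and fold change over 2), 0.950% were higher and 5.63% lower. The fold change was taken here on RPKM + 1, and with smaller pseudocounts more genes passed. In 19.8% of genes every siRNA library was above every control library, and in 35.9% every siRNA library was below. The median difference over all genes tested was -0.09. An alternative scaling, chosen after seeing the data, centred each library on the mean log2(RPKM + 1) of 15 macrophage markers.

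The start-site regions of 3 of the genes are shown because the enzymes targeted act on methylated CpG and because the transporter gene carries a sequence of the kind LXR binds. Each is the RefSeq promoter window on GRCm38.p6, 300 bases long with 250 before the start site and 50 after it, read 5′ to 3′ on the strand of the gene, and capitals mark every CG. Apoc2 lies at chr7:19677892-19678191, minus strand, Apoe at chr7:19699139-19699438, minus strand (the farthest upstream of its 3 start sites), and Abca1 at chr4:53159846-53160145, minus strand.
Apoc2: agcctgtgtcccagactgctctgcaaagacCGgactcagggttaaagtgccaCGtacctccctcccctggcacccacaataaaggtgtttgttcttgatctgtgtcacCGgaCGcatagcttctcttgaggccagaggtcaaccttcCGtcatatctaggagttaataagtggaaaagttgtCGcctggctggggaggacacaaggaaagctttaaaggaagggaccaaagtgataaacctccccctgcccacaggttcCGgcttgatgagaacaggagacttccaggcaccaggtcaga
Apoe: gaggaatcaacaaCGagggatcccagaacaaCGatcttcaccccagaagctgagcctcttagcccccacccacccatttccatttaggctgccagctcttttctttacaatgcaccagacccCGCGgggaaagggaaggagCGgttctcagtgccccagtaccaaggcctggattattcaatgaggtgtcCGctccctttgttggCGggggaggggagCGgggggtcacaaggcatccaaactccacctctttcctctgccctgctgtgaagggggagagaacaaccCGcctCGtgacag
Abca1: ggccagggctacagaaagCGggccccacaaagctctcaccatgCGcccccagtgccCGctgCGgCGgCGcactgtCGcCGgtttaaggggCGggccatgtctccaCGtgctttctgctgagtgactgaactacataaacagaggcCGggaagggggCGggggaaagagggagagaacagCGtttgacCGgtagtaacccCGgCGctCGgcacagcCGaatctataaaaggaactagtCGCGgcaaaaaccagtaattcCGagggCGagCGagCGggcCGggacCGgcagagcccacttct
The Apoc2 window held 7 CG and the Apoe window 10, near the median of 7 over all 32851 promoter windows, whereas the Abca1 window held 26, at percentile 83.1 of the windows. Windows were found for 7 of the 10 genes, 10 windows in all. Apoc4 had the fewest CG, 5, and Mylip the most, 29 (percentile 87.1). Methylation was not analysed here, and the relation of the levels to these windows was not tested.

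Both strands were searched for AGGTCA, the half-site that nuclear receptors read, and for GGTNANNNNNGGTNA, a pair of such half-sites in the arrangement LXR with RXR prefers. The matches in Abca1 and Apoc2 are shown with up to 20 bases on either side and the match in capitals.
Abca1 pair of half-sites: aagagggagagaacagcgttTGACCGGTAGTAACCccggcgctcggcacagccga
Apoc2 upstream half-site: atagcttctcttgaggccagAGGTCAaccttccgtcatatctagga
Apoc2 downstream half-site: acaggagacttccaggcaccAGGTCAga
The pair in Abca1 lay 67 bases before the start site and reads as the motif on the other strand, and 0.718% of all promoter windows hold this pair. The half-sites of Apoc2 lay 115 bases before and 42 bases after its start site, Apoc4 held 1 half-site 25 bases before its start, and 16.3% of all windows hold at least 1. A match is a string of letters in a window and was not tested as a binding site.

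The 4 cluster apolipoprotein genes lie on the minus strand of chromosome 7 (GENCODE M21, GRCm38): Apoc2 at chr7:19671579-19677941, Apoc4 at chr7:19678083-19681479, Apoc1 at chr7:19689481-19692660 and Apoe at chr7:19696109-19699188. Apoe and Apoc2 were higher in siTet1/Tet2 libraries, and Apoc1 and Apoc4 were higher from levels near the floor. Apoe encodes the main apolipoprotein that macrophages secrete. It was listed at 3985, 3856 and 3310 RPKM in the controls and at 10273, 10272 and 9833 RPKM in the siRNA libraries. Every siRNA library was more than double any control, and the mean went from 3717 ± 358 (SD, n = 3) to 10126 ± 254 RPKM (SD, n = 3), a ratio of 2.72 and a log2 difference of 1.45 (SE 0.16). Apoe was among the most abundant entries of every library, ranking between 5 and 6 in the controls and 4 in each siRNA library. It held between 0.841% and 0.922% of the summed RPKM in the controls and between 2.32% and 2.34% in the siRNA libraries.

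Apoc2 encodes the cofactor that lipoprotein lipase needs to hydrolyse triglyceride. Its level was 8.64, 9.09 and 5.76 RPKM in the controls and 49.9, 43.5 and 34.8 RPKM in the siRNA libraries. The groups were far apart, and the third library was the lowest in both. The mean went from 7.83 ± 1.81 to 42.7 ± 7.62 RPKM (SD, n = 3 each), a ratio of 5.46 that ran from 4.78 to 6.04 between same-numbered libraries, and the log2 difference was 2.32 (SE 0.17). By the estimated depth and its longest annotated transcript, these values stand for 136 to 236 reads in the controls and 902 to 1391 in the siRNA libraries. By size of difference Apoc2 stood at rank 5 of all genes tested, just below Mmp8 (2.32, SE 0.16) and just above F13a1 (2.31, SE 0.25), intervals that overlap widely. Per unit of length Apoc2 remained far below Apoe in each library.

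Apoc1 encodes a small apolipoprotein known to restrain lipolysis and lipoprotein uptake. It was listed at 0.481, 0.619 and 0.667 RPKM in the controls and at 1.68, 2.38 and 0.864 RPKM in the siRNA libraries. The groups did not overlap, but siRNA replicate 3 lay close to the controls, and the log2 difference was 0.69 (SE 0.19). With its longest transcript these levels correspond to 10 or 11 reads in each control and to 34, 49 and 16 reads in the siRNA libraries. Apoc4, the least expressed of the cluster in every library, stood at the lowest listed value of 0.001 RPKM in control replicate 1, at 0.232 and 0.356 RPKM in the other controls and at 1.10, 0.548 and 0.653 RPKM in the siRNA libraries. The control with the highest value was below every siRNA library, and the log2 difference was 0.56 (SE 0.14). With the longest transcript the siRNA libraries held an estimated 88, 44 and 49 reads of Apoc4, and with the shortest 23, 11 and 13. An annotated gene that spans Apoc2 and Apoc4 on the same strand, Gm44805, is not among the symbols of the table, and how reads over it were assigned is not given in the sources used here, so reads of Apoc2 and Apoc4 may have been shared with it.

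**Figure D1:**
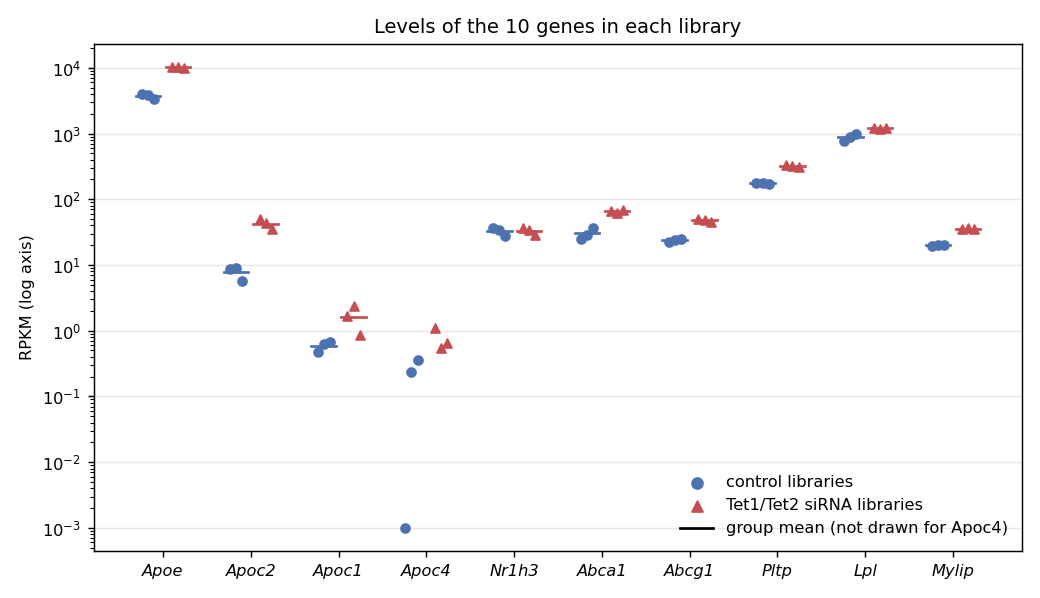
Level of each gene in each library as RPKM on a log axis, with circles for the 3 control libraries, triangles for the 3 Tet1/Tet2 siRNA libraries and a line at each group mean (none for Apoc4, which has a library at the lowest listed value of 0.001). All triangles lie above all circles for every gene but Nr1h3, and Apoc2 shows the widest gap between the nearest circle and triangle, from a mean of 7.83 to 42.7 RPKM.

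Of the genes beside the cluster none passed in the same direction, although 1, Relb, named after its values were seen, rose after median ratio scaling or quantile normalization of the libraries. The neighbours listed were 11 genes from Ppp1r37 to Bcl3, and 10 were tested. Of these, 0 rose (limma, 0 also at an unadjusted p under 0.05), 4 fell and 6 did not pass, with a median difference of -0.27. Over all genes tested 14.7% rose and 29.8% fell, so these counts are not read as a contrast with the cluster. Bcam, an adhesion molecule of the immunoglobulin family, fell from 4.92 ± 0.957 to 1.01 ± 0.412 RPKM (SD, n = 3 each), a log2 difference of -1.57 (SE 0.17, limma adjusted p = 1.84e-04). Nectin2, listed by its older symbol Pvrl2, fell by 0.50 on the log2 scale (SE 0.07, limma adjusted p = 8.24e-04), and Gemin7 fell by 0.42 (SE 0.10, limma adjusted p = 0.00883), a call that was lost when all genes of the table were tested (limma adjusted p = 0.113). The genes directly flanking the cluster were Tomm40, 2124 bases from Apoe, and Clptm1, 6545 bases from Apoc2, named here for their position after their values were seen. Tomm40, a pore of the mitochondrial outer membrane, fell from 60.1 to 47.7 RPKM (log2 difference -0.32, SE 0.07, limma adjusted p = 0.00440), and Clptm1 was at 61.0 and 62.8 RPKM (limma adjusted p = 0.597).

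**Figure D2:**
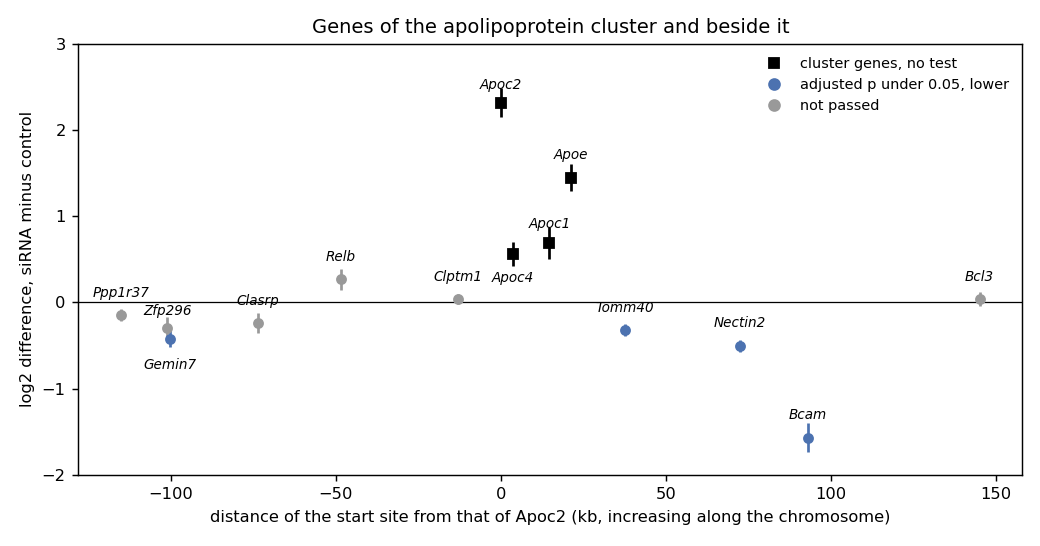
Log2 difference (siRNA minus control, of RPKM + 1, vertical axis) of the 4 cluster genes and the 10 neighbours tested against the distance of their start sites from that of Apoc2 in kb, with bars for the standard error. The 4 cluster genes lie between 0.56 and 2.32, whereas the neighbours lie between -1.57 and 0.27.

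The receptor gene itself did not separate the groups. Nr1h3 (chr2:91184061-91202834, minus strand) was listed at 36.4, 34.4 and 27.4 RPKM in the controls and at 36.1, 34.1 and 28.8 RPKM in the siRNA libraries. The ranges overlapped, the third library was again the lowest of each group, and the log2 difference was 0.02 (SE 0.12) between means of 32.7 ± 4.71 and 33.0 ± 3.77 RPKM (SD, n = 3 each). Between same-numbered libraries the ratio lay between 0.992 and 1.05. Of its listed partners, 6 genes, 5 were tested and 3 rose, with a median difference of 0.24. Rxra, the RXR most expressed here, rose from 32.9 ± 0.934 to 58.5 ± 1.10 RPKM (SD, n = 3 each; log2 difference 0.81, SE 0.05, limma adjusted p = 1.82e-05). Rxrb rose from 14.6 to 19.6 RPKM (log2 difference 0.40, SE 0.08, limma adjusted p = 0.00340), and Nr1h2, named as the other LXR gene after its values were seen, rose from 44.9 to 53.1 RPKM (log2 difference 0.24, SE 0.06, limma adjusted p = 0.0174) but stood at -0.09 relative to the macrophage markers. The corepressor gene Ncor1, named after its values were seen, did not pass (log2 difference -0.11, SE 0.13, limma adjusted p = 0.555).

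The enzymes that make or inactivate the oxysterol ligands moved in both directions. Of 5 listed, 4 were tested, 1 rose and 1 fell. Cyp27a1, which makes 27-hydroxycholesterol in mitochondria, rose from 3.63 ± 0.415 to 8.31 ± 0.212 RPKM (SD, n = 3 each; log2 difference 1.01, SE 0.09, limma adjusted p = 7.85e-05). Ch25h, which makes 25-hydroxycholesterol and is known as an interferon-inducible gene, fell from 1.97 ± 0.210 to 0.625 ± 0.0898 RPKM (log2 difference -0.87, SE 0.09, limma adjusted p = 1.07e-04). Sult2b1, which sulphates oxysterols, was at 0.408 and 0.610 RPKM and did not pass (limma adjusted p = 0.196).

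Both efflux transporter genes were higher after siRNA treatment. Abca1 (chr4:53030787-53159895, minus strand) encodes the transporter that loads cholesterol and phospholipid onto lipid-poor apolipoproteins. It was listed at 24.6, 29.0 and 37.1 RPKM in the controls and at 67.2, 61.2 and 68.9 RPKM in the siRNA libraries. The controls were spread more widely than the siRNA libraries, with no overlap, and the log2 difference was 1.11 (SE 0.13) between means of 30.2 ± 6.35 and 65.8 ± 4.08 RPKM (SD, n = 3 each). Abcg1 (chr17:31057675-31117988, plus strand) encodes the transporter that passes cholesterol to mature HDL. Its level was 22.7, 23.7 and 24.5 RPKM in the controls and 50.5, 48.2 and 44.3 RPKM in the siRNA libraries. Its controls varied little, and the log2 difference was 0.98 (SE 0.07), a ratio of 2.01. Per unit of length Abca1 was above Abcg1 in each of the 6 libraries.

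Genes of sterol efflux and intracellular traffic outside the 10 moved the same way in part. Of 10 listed, 9 were tested, 7 rose and 0 fell (limma, 0 also at an unadjusted p under 0.05), beside 14.7% and 29.8% of all genes tested. The median difference was 0.47. Abca7, a relative of Abca1 linked to phagocytosis, rose from 2.99 ± 0.344 to 7.53 ± 0.347 RPKM (SD, n = 3 each; log2 difference 1.10, SE 0.09, limma adjusted p = 5.61e-05). Npc1, which exports cholesterol from lysosomes, rose from 71.3 to 123 RPKM (log2 difference 0.77, SE 0.06, limma adjusted p = 2.34e-05), and Soat1, which esterifies cholesterol for storage, rose from 109.5 to 172 RPKM (log2 difference 0.64, SE 0.06, limma adjusted p = 8.23e-05). The others that rose, Lipa, Scarb1, Nceh1 and Stard4, had log2 differences between 0.27 and 0.52, of which Nceh1 and Stard4 stood at -0.04 and -0.06 relative to the macrophage markers. Npc2, the soluble partner of Npc1, was at 367 and 328 RPKM and did not pass (limma adjusted p = 0.217), and Abca5 did not pass either (log2 difference -0.08, SE 0.10). Npc2, Abca5 and the genes between 0.27 and 0.52 were named after their values were seen.

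**Figure D3:**
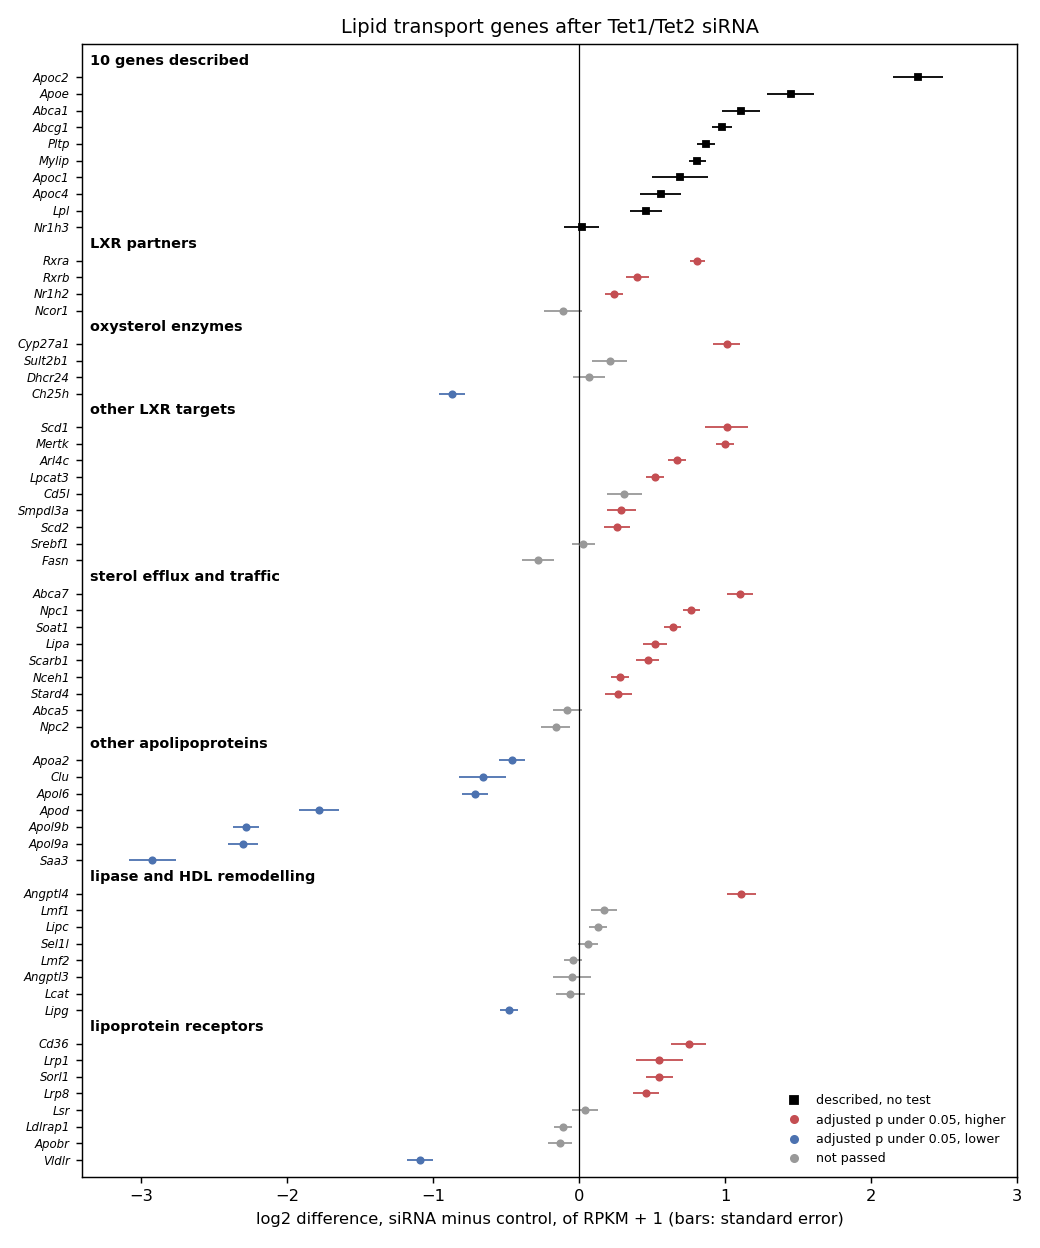
Log2 difference (siRNA minus control, of RPKM + 1, horizontal axis) of the 10 genes described, as squares, and of most of the 51 tested genes of 7 lipid lists, as circles coloured by direction where the adjusted p was under 0.05, with bars for the standard error. The 10 genes run from 0.02 (Nr1h3) to 2.32 (Apoc2), the efflux list lies mostly to the right of 0, and the other apolipoproteins all lie to the left.

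Pltp and Lpl, which remodel lipoproteins, were higher in every siRNA library than in any control. Pltp (chr2:164839518-164857711, minus strand) encodes the protein that moves phospholipid between lipoproteins. It was listed at 180, 175 and 174 RPKM in the controls and at 332, 326 and 312 RPKM in the siRNA libraries. The spread within each group was a few percent of its mean, and the log2 difference was 0.87 (SE 0.06) between 176 ± 3.17 and 323 ± 10.1 RPKM (SD, n = 3 each). The end of Pltp overlaps Ctsa on the other strand, and the use of strand in counting is not given in the sources used here, so their reads cannot be told apart there; Ctsa was at 602 ± 68.3 and 839 ± 37.4 RPKM (SD, n = 3 each), a log2 difference of 0.48 (SE 0.10). Lpl (chr8:68880491-68907448, plus strand) encodes the lipase for which the Apoc2 product is the cofactor. It was listed at 763, 887 and 991 RPKM in the controls and at 1234, 1155 and 1213 RPKM in the siRNA libraries. The highest control came close to the lowest siRNA library without reaching it, and the log2 difference was 0.46 (SE 0.11), a ratio of 1.36 against 5.46 for its cofactor.

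Of 9 listed genes that mature, inhibit or resemble these lipases, 8 were tested, 1 rose, 1 fell and 6 did not pass, with a median difference of 0.01. Angptl4, a secreted inhibitor of lipoprotein lipase, rose from 9.08 ± 1.20 to 20.6 ± 1.04 RPKM (SD, n = 3 each; log2 difference 1.11, SE 0.10, limma adjusted p = 6.53e-05). Lipg, the endothelial lipase, fell from 0.414 ± 0.0216 to 0.0143 ± 5.77e-04 RPKM (log2 difference -0.48, SE 0.06, limma adjusted p = 2.47e-04). Lmf1, a folding factor for lipoprotein lipase, was at 12.1 and 13.7 RPKM and did not pass (limma adjusted p = 0.163). Gpihbp1, which anchors the lipase on capillary endothelium, stood at the lowest listed value of 0.001 RPKM in all 6 libraries and was named after its values were seen.

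Mylip (chr13:45389742-45412022, plus strand), also called Idol, encodes an LXR-controlled ligase that marks lipoprotein receptors for degradation. It was listed at 19.3, 20.4 and 20.1 RPKM in the controls and at 35.0, 36.2 and 35.5 RPKM in the siRNA libraries. Its coefficient of variation was 2.90% in the controls and 1.80% in the siRNA libraries, and the log2 difference was 0.81 (SE 0.06) between 19.9 ± 0.578 and 35.6 ± 0.642 RPKM (SD, n = 3 each). Of 10 listed lipoprotein receptor genes 9 were tested, 4 rose, 1 fell and 4 did not pass, with a median difference of 0.12. Vldlr fell from 1.89 ± 0.191 to 0.358 ± 0.105 RPKM (log2 difference -1.09, SE 0.09, limma adjusted p = 4.34e-05). The receptor proteins, on which the ligase acts, were not measured here. Cd36, a scavenger receptor for oxidised LDL, rose from 1101 to 1856 RPKM (log2 difference 0.75, SE 0.12, limma adjusted p = 0.00124), and Sorl1, a sorting receptor, rose from 4.38 to 6.88 RPKM (log2 difference 0.55, SE 0.09, limma adjusted p = 0.00198). The receptors that also rose, Lrp1 and Lrp8, had log2 differences of 0.55 (SE 0.16) and 0.46 (SE 0.09) and were named after their values were seen.

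Other genes commonly listed as LXR targets were higher in most cases. Of 9 listed, all were tested, 6 rose and 0 fell (limma, but 1, Fasn, at an unadjusted p under 0.05), beside 14.7% and 29.8% of all genes tested. The median difference was 0.31. Mertk, the receptor through which macrophages engulf apoptotic cells, rose from 50.7 ± 2.64 to 102 ± 3.55 RPKM (SD, n = 3 each; log2 difference 1.00, SE 0.06, limma adjusted p = 1.31e-05). Scd1, a fatty acid desaturase, rose from 13.8 ± 2.66 to 28.6 ± 4.42 RPKM (log2 difference 1.01, SE 0.15, limma adjusted p = 8.07e-04). The remaining genes of this list that rose had log2 differences between 0.26 and 0.67, with Arl4c at 0.67 (SE 0.06), Lpcat3 at 0.52 (SE 0.06), Smpdl3a at 0.29 (SE 0.10) and Scd2 at 0.26 (SE 0.09), the last pair at -0.03 and -0.07 relative to the macrophage markers. The fatty acid synthesis genes Srebf1 and Fasn did not pass: Srebf1 was at 20.7 and 21.1 RPKM (limma adjusted p = 0.757) and Fasn at 13.8 and 11.3 RPKM (limma adjusted p = 0.0826). Srebf1, Fasn, Smpdl3a and Scd2 were named after their values were seen.

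The apolipoproteins outside the cluster that could be tested went the other way. Of 16 listed, 7 reached the expression needed for a test and all 7 fell, beside 29.8% of all genes tested. The median difference of -1.78 is that of Apod. The expression needed was a mean over all 6 libraries, which Apod reached only through its controls. Saa3, an acute-phase apolipoprotein, fell from 18.4 ± 3.04 to 1.58 ± 0.487 RPKM (SD, n = 3 each; log2 difference -2.92, SE 0.16, limma adjusted p = 6.82e-06). Apol9a and Apol9b, interferon-inducible members of the Apol family, fell with log2 differences of -2.30 (SE 0.10) and -2.28 (SE 0.09), and since they are near-identical copies the reads could have been split between them. Apod, a lipocalin made by fibroblasts and glia, fell from 2.63 ± 0.781 to 0.0390 ± 0.0370 RPKM (log2 difference -1.78, SE 0.14, limma adjusted p = 4.13e-05). Apol6, Clu and Apoa2 fell with log2 differences of -0.71 (SE 0.09), -0.66 (SE 0.16) and -0.46 (SE 0.09), although Clu no longer passed when all genes of the table were tested (limma adjusted p = 0.137). These 3 had control means at or below 1.76 RPKM. The classical plasma apolipoprotein genes of liver and intestine were near the floor: Apoa4 and Apoa5 stood at 0.001 RPKM in all 6 libraries, and Apoa1, Apob and Apoc3 had group means of at most 0.0340 RPKM. Apoa2 and these genes at the floor were named after their values were seen.

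Over the 7 lists together, 65 genes, 51 were tested, 22 rose, 10 fell and 19 did not pass. Over all genes tested 14.7% rose and 29.8% fell. The median difference of the lists was 0.13 beside -0.09 over all genes tested. Of the 10 genes described, 9 had an adjusted p under 0.05 with a higher level, against 14.7% of all genes. By the study's thresholds, with the fold change taken on RPKM + 1, 3 (Apoc2, Apoe and Abca1) were altered upward, against 0.950%. Of the 10 genes, 9 did not overlap between groups, against 19.8%, and the median difference of the 10 was 0.84. The 9 became 6 when all genes of the table were tested and 6, with Nr1h3 lower, relative to the macrophage markers, and the 3 became 6 with a pseudocount of 0.1 or 0.01 and 2 relative to the markers. Because the family was picked on this contrast, nothing is read from these counts.

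Markers of macrophages, stromal cells and adipocytes also differed between the groups, not all in the same direction. The libraries labelled BMMSC carried abundant macrophage transcripts in both groups. The 15 macrophage markers summed to 13952, 13164 and 10789 RPKM in the controls and to 22789, 21581 and 19435 RPKM in the siRNA libraries, with no marker at the lowest listed value. Lyz2 alone made up 6882 of the difference of 8633 RPKM between the mean sums, and without it the sums were 8938, 8407 and 7242 RPKM in the controls and 10061, 10188 and 9592 RPKM in the siRNA libraries, a ratio of 1.21 in place of 1.68. Of the 15, 13 had a higher mean and 2 a lower mean in the siRNA group, 7 rose and 1, Mrc1, fell, and their log2 differences ran from -0.27 to 1.36 with a median of 0.20. Lyz2 and Tyrobp led with 1.36 (SE 0.21) and 1.35 (SE 0.18), whereas Ptprc, the leukocyte antigen CD45, was at 52.6 and 53.0 RPKM and Spi1, the myeloid factor PU.1, at 196 and 209 RPKM, neither of which passed (limma adjusted p = 0.949 and 0.275). Mrc1, Ptprc and Spi1, and Lum and Thy1 of the stromal list, were named after their values were seen. The 12 stromal markers summed to 1064, 990.4 and 1527 RPKM in the controls and to 134, 178 and 269 RPKM in the siRNA libraries. Of these, 11 had a lower mean and 9 of 10 tested fell, by log2 differences of up to -3.10, with Lum and Thy1 at or near the lowest listed value. The 8 adipocyte markers summed to 336, 336 and 277 RPKM in the controls and to 723, 665 and 568 RPKM in the siRNA libraries, with 5 of 7 tested higher and 1 lower. Fabp4 made up most of the adipocyte sum, and without it the mean sum was 39.4 ± 2.13 RPKM in the controls and 36.3 ± 3.77 RPKM in the siRNA libraries (SD, n = 3 each). Most of that remainder was Pparg, the marker that fell, at 32.5 and 19.7 RPKM. Adipoq, Plin1, Cidec and Retn, given below, rose from lower levels.

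Set beside the macrophage markers, the 10 genes fell into different positions. The log2 differences of Apoc2 and Apoe exceeded those of all 15 macrophage markers. Those of Abca1, Abcg1, Pltp, Mylip and Apoc1 exceeded 13, that of Apoc4 exceeded 12, that of Lpl 11 and that of Nr1h3 3. Apoe, at 1.45 (SE 0.16), lay within error of Lyz2 (1.36, SE 0.21) and Tyrobp (1.35, SE 0.18), so its place above them is not resolved. After quantile normalization Apoe was at 0.26, below Tyrobp (1.19) and Cd68 (0.31) and above Lyz2 (0.06). In both groups the third library had the lowest Apoe, Apoc2 and Nr1h3, the lowest macrophage sum and the highest stromal sum. It also had the lowest summed RPKM of its group, 393567 in the controls and 423889 in the siRNA libraries, and the lowest estimated depth. The part of these library differences in that order was not tested. Relative to the macrophage markers the log2 difference was 1.99 for Apoc2, 1.12 for Apoe, 0.79 for Abca1, 0.65 for Abcg1, 0.55 for Pltp and 0.48 for Mylip. It was 0.37 (SE 0.20) for Apoc1, 0.24 (SE 0.18) for Apoc4, 0.13 (SE 0.13) for Lpl and -0.31 (SE 0.09) for Nr1h3. On that scale 11 of the 51 lipid list genes rose and 20 fell, in place of 22 and 10. Rxrb, Lpcat3 and Sorl1 no longer passed (limma adjusted p = 0.398, 0.0621 and 0.168). The centring used the mean of the 15 markers, which Lyz2 (log2 difference 1.36) and Tyrobp (1.35) raised above the median marker difference of 0.20. All values relative to the markers, including changes of sign, therefore depend in part on these genes, and a centring without them was not run. In bulk samples such as these, fewer cells of a type and less RNA per cell cannot be told apart, and the part of the macrophage, stromal and adipocyte transcripts in the results was not tested.

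**Figure D4:**
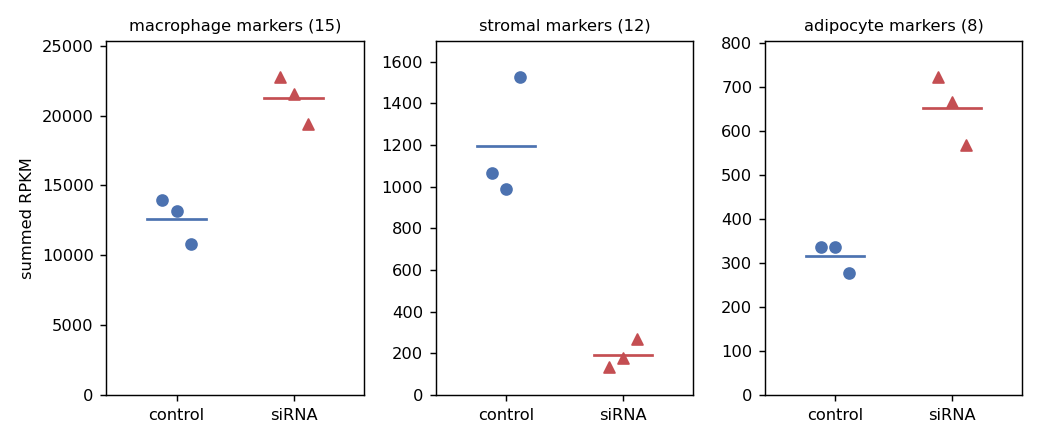
Summed RPKM (vertical axes, each starting at 0) of the macrophage, stromal and adipocyte marker lists in the 3 control libraries, circles, and the 3 Tet1/Tet2 siRNA libraries, triangles, with a line at each group mean. The macrophage sum goes from a mean of 12635 to 21268, the stromal sum from 1194 to 194 and the adipocyte sum from 316 to 652. Without Lyz2 the macrophage sum goes from 8196 to 9947, and without Fabp4 the adipocyte sum goes from 39.4 to 36.3. Most of that adipocyte remainder is Pparg (32.5 and 19.7), which fell, whereas Adipoq, Plin1, Cidec and Retn rose.

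Across the 6 libraries the profile of Apoc2 was closest to those of Sri, Acvrl1, Sgk1, Rilpl2 and Galns among the 6145 genes that averaged 10 RPKM or more. Pearson's r of log2(RPKM + 1) over the 6 libraries was 0.9994 for Sri, a calcium-binding protein, 0.9992 for Acvrl1, a receptor of the BMP family, 0.9991 for Sgk1, a serum-regulated kinase, 0.9989 for Rilpl2 and 0.9988 for Galns, a lysosomal sulphatase. Like Apoc2, all 5 were lower in every control than in any siRNA library and lowest in the third library of each group. These correlations therefore reflect both the step between the groups and the order of the libraries within them. Among the other genes of the family r was 0.99 for Apoe and Pltp, 0.98 for Abcg1 and Mylip, 0.89 for Abca1, 0.83 for Lpl and 0.24 for Nr1h3. Apoe stood at rank 67 of the 6145 by this measure and Nr1h3 at rank 2216. Among the controls, Abca1 and Lpl were highest in the third library, where Apoc2 was lowest.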

How the data were processed

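The authors prepared libraries from total RNA, sequenced them as paired-end reads, trimmed the adaptors, mapped the reads to GRCm38 and estimated abundance with DNASTAR Lasergene. They deposited 1 table of RPKM values for the 6 libraries, a unit the methods call FPKM. Its annotation release and its handling of strand and of reads matching several places are not given in the sources used here. The table also holds the authors' p-values for their own comparison, which were not used.

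The genes described and the lists were chosen with earlier results of these data known. Where a symbol had several rows, that with the highest mean was taken, and symbols averaging 0.1 RPKM or more (13266 of 36870) were tested, two-sided, on log2(RPKM + 1) with limma 3.58.1 in R 4.3.3 (lmFit, eBayes with trend) and Benjamini-Hochberg adjustment over all genes. The script was tested on simulated data. For a single gene, 3 libraries against 3 cannot reach an exact permutation p under 0.1. The genes named were all 10 and, in each list, those with an adjusted p under 0.05 and a fold change of RPKM + 1 over 2. Among the rest of each list, the 2 with the largest absolute differences were also named. Further names are marked as chosen after their values were seen, and some list genes are counted but not reported by name here. Gene symbols matched by an older symbol were 2. Positions are from GENCODE M21 and promoter windows from RefSeq GRCm38.p6, read with Python 3.11.15 (pandas 2.3.3, numpy 2.4.6).

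The sample labels share replicate numbers between the groups. Deviations from the group means correlated at 0.149, 0.117 and 0.462 for replicates 1, 2 and 3, and an alternative fit therefore used the number as a block. The pairing comes from these values alone, as the sources do not define the numbers, and the value across numbers was as high as 0.332 (control replicate 1 and siRNA replicate 2). The other alternatives were 2 pseudocounts, 2 filters, scaling by sum, median ratio or quantiles, eBayes without trend, summed rows, each library left out in turn and, chosen after seeing the data, centring on macrophage markers.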

Additional observations from a re-analysis of the deposited data

How the results depend on the processing

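The median log2 difference of the 10 genes, 0.84, was 1.07 with a pseudocount of 0.1 or 0.01, 0.94 with median ratio scaling, 0.90 after quantile normalization, 0.78 with the same sum in each library and 0.51 relative to the macrophage markers, and lay between 0.83 and 0.91 with 1 library left out. Genes altered numbered 873, but 1728 with a pseudocount of 0.1, 1958 with 0.01 and 1341 relative to the macrophage markers; the share that were lower was 85.6%, 73.4% after quantile normalization and 96.3% relative to the markers. The share of lower genes at an adjusted p under 0.05 was 66.9%, but 52.7% after median ratio scaling, 42.1% after quantile normalization and 94.3% relative to the markers, which moved the median of all genes to -0.41 (0.06 after quantile normalization). Relative to the markers 11 lipid list genes rose, 20 fell and 9 neighbours were called, in place of 22, 10 and 4; with 1 library left out 17 to 21 rose, 10 to 11 fell and 4 to 5 neighbours were called. In the fit with the replicate block the values were 0.84, 873, 23, 11 and 5, and no count moved by over 1.5 times. Of the 59 genes called in the lipid, neighbour and marker lists, 7 took the other sign relative to the macrophage markers, none of them past the threshold there, and none did in the other fits.

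Among the 10 genes, Apoc2 lay between 1.99 and 2.46 in 17 alternatives. Apoe was at 0.26 after quantile normalization, which sets each rank to 1 value in every library, and between 1.12 and 1.56 in the rest. Apoc1 reached 1.36 and Apoc4 2.91 with a pseudocount of 0.01, since their levels lie under the main pseudocount of 1. Lpl, at 0.46, was 0.20 (SE 0.16) after quantile normalization and 0.13 relative to the macrophage markers. Nr1h3 lay between -0.31 and 0.13. Among the named genes of the lists, 2 that had not passed did so under another scaling (Lmf1 in both median ratio scaling and quantile normalization, Sult2b1 in the latter), and Lyz2 no longer passed after quantile normalization (log2 difference 0.06). The few reads of Apoc1 and Apoc4 limit what their differences can show.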

Other observations

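Genes of the adipocyte list, given above as a sum, did not all move alike. Cidec, a lipid droplet protein, rose from 1.12 ± 0.193 to 4.06 ± 0.699 RPKM (SD, n = 3 each; log2 difference 1.25, SE 0.12, limma adjusted p = 1.00e-04), and Fabp4, a fatty acid carrier shared by adipocytes and macrophages, rose from 277 ± 32.2 to 616 ± 81.4 RPKM (log2 difference 1.15, SE 0.12, limma adjusted p = 1.61e-04). Adipoq and Plin1 rose by log2 differences of 0.97 (SE 0.15) and 0.96 (SE 0.14). Pparg, the nuclear receptor known both to drive fat cell formation and to control Nr1h3 in macrophages, fell from 32.5 ± 1.75 to 19.7 ± 0.591 RPKM (log2 difference -0.69, SE 0.06, limma adjusted p = 8.32e-05) and was named after its values were seen. Plin4 was at 1.08 and 1.16 RPKM and did not pass (limma adjusted p = 0.762), Lep had group means of 0.00933 and 0.0827 RPKM, below the level needed for a test, and Retn, at 0.176 and 0.495 RPKM, rose by 0.36 (SE 0.11). Plin4, Lep and Retn were named after their values were seen.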
